A study of Mus musculus with 4 samples.

Results

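Neutrophil granule and maturation stage genes were examined in haematopoietic stem cells (HSC) that had lost the retinoblastoma (Rb) family. The genes were 37 listed by name for their place in neutrophil development, with earlier results of these data known. Each was represented by the brightest probe set that the platform annotation gives to that gene alone. Of the 37, 35 had such a probe set, among 18193 genes in all, and Retnlg and Fpr1 had none and are not analysed here. The 35 fell into 5 groups by stage, with 5 azurophil granule and promyelocyte stage genes, 11 specific granule genes, 1 gelatinase granule gene, 4 NADPH oxidase subunits and 14 late genes.

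The cells were sorted from adult mice by a KLS CD48- CD150+ gate (KLS stands for Kit-positive, lineage-negative and Sca-1-positive), 2 weeks after tamoxifen had activated recombination, and RNA was hybridised to Affymetrix mouse arrays. Rb family deficient HSC were Rb -/- p130 -/- p107-/- by genotype, and those called wild type were Rb +/+ p130 +/+ p107-/-, so that loss of p107 was shared by both groups. There were 2 pools in each group, each made from 3 mice. The driver of the recombinase, the age and strain of the mice and the content of the lineage cocktail are not stated in the labels, and nothing there says whether a mouse entered more than 1 pool.

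Neutrophils fill their granules in waves as they mature. Promyelocytes make the proteases and peroxidase of the azurophil granules, myelocytes and metamyelocytes then make the antimicrobial proteins of the specific granules, and gelatinase granules follow, before chemotactic and pattern recognition receptors appear in segmented cells. C/EBP and PU.1 transcription factors drive this programme. Stem cells themselves are not known for making granule proteins, although low levels of transcripts of later lineages have long been described in sorted progenitors.

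Values are log2 expression after RMA, and in each sentence below the value of pool 1 comes before that of pool 2. The 4 array medians lay between 5.94 and 6.02. Across genes, which are not independent replicates, Pearson's r was 0.990 within deficient HSC, 0.987 within wild type HSC and 0.983 to 0.990 for pairs of unlike genotype. Of the targeted genes, Rbl2 (p130) was at 7.82 and 8.21 in deficient HSC, against 8.94 and 8.75 in wild type HSC, while Rb1 was at 9.82 and 9.72, against 9.37 and 9.58, and Rbl1 (p107) at 5.35 and 5.42, against 5.92 and 6.77. Whether these probe sets lie inside the deleted sequence is not known here, so they do not check the labels. The sort markers Slamf1 (CD150), Cd48 and Kit had log2 differences of 0.24 (SE 0.40), -0.03 (SE 0.42) and -0.59 (SE 0.28). The Y-linked gene Eif2s3y was at 8.50 and 9.64 in deficient HSC, against 9.93 and 10.29 in wild type HSC. Kdm5d and Uty, also Y-linked, were lower in both deficient pools too. Kdm5d was at 6.12 and 7.86, against 8.26 and 8.37, and Uty at 5.11 and 6.48, against 6.90 and 6.68. The part of the sex of the mice in the differences below was not tested. The difference between the 3' and 5' control probe sets of Actb, a sign of RNA quality, was 3.13 and 2.95 in deficient HSC, against 2.32 and 2.81 in wild type HSC.

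Most of these neutrophil genes had higher values in Rb family deficient HSC. As the list was made with earlier results of these data known, part of an excess over all genes may come from that choice. Of the 35, 32 differed by more than 0, against 49.2% of all genes, and the median log2 difference was 0.82, or 1.77-fold, against -0.00376 over all genes. At least 2-fold higher values were found for 14 of the 35, against 0.528% of all genes, and at least 2-fold lower values for 0 of the 35, against 0.275% of all genes. By limma's moderated test no member passed an adjusted p of 0.05 over all genes, nor did any other gene (0% of genes in either direction). At an unadjusted p under 0.05 by limma, 15 of the 35 were higher, against 2.19% of all genes, and 1 was lower, against 4.04%, and no other tool was run. With each array centred on its median, the unadjusted counts over all genes were 297 higher and 1015 lower, against 399 higher and 735 lower as deposited. In 21 of the 35 both deficient pools lay above both wild type pools, against 17.0% of all genes, and in 2 both lay below, against 18.5%. A design of 2 pools against 2 cannot give an exact permutation p below 0.333. In RNA from a sorted population, a larger number of cells of a type and more RNA per cell cannot be told apart.

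**Figure D1:**
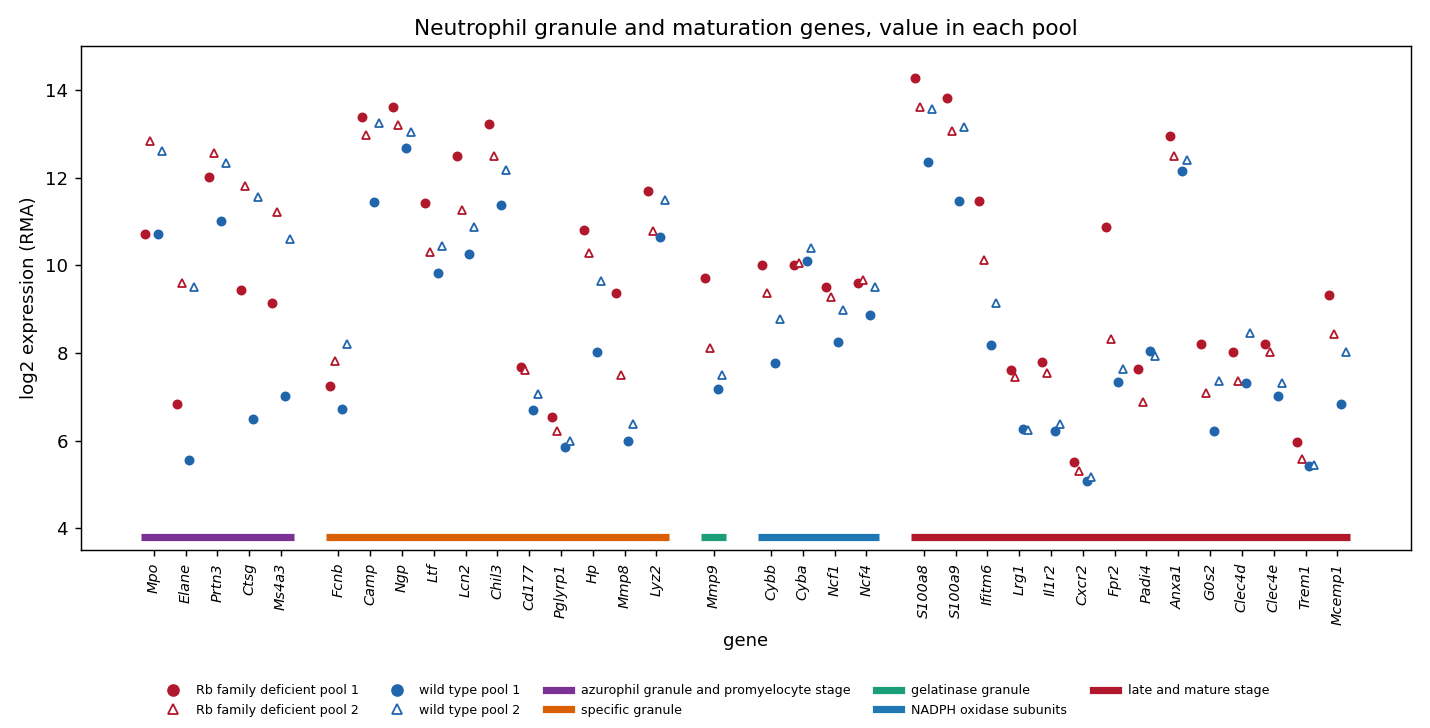
The plot gives the log2 expression (RMA, vertical axis) of each of the 35 genes (horizontal axis) in the Rb family deficient pools (red) and the wild type pools (blue), with circles for pool 1 and triangles for pool 2 and a coloured bar under each stage group. The azurophil genes split by pool number, while in most specific and late genes deficient pool 1 was the highest point and wild type pool 1 the lowest.

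The pools of a genotype also differed from each other in these genes. Wild type pool 1 had the lowest value of the 4 pools in 32 of the 35 genes, against 31.5% of all genes, and deficient pool 1 had the highest in 25, against 26.5%. The full order of deficient pool 1, deficient pool 2, wild type pool 2 and wild type pool 1, from the highest, was seen for 19 of the 35 genes, against 5.67% of all genes. The 3' minus 5' difference of Actb followed the same order of pools, while that of Gapdh did not, at 2.79 and 2.50 in deficient HSC, against 2.40 and 2.58 in wild type HSC. Their part in these values was not tested. The median difference of the members was 1.35 between deficient pool 1 and wild type pool 1, 1.03 between deficient pool 2 and wild type pool 1, 0.57 between deficient pool 1 and wild type pool 2, and 0.23 between deficient pool 2 and wild type pool 2. Without wild type pool 1 the median was 0.36, with 24 of 35 members above 0 and 6 at least 2-fold higher. Without wild type pool 2 the median was 1.26 and 23 members were at least 2-fold higher. Without deficient pool 1 the median was 0.72. The shares of all genes above 0 or at least 2-fold higher were not counted in these fits.

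Of the 5 azurophil granule genes, 4 differed more between the pools of each genotype than between the genotypes. Ctsg, the serine protease cathepsin G, was at 9.43 and 11.80 in deficient HSC, against 6.50 and 11.55 in wild type HSC. Elane, neutrophil elastase, was at 6.84 and 9.60 in deficient HSC, against 5.56 and 9.50 in wild type HSC. Ms4a3, a membrane protein of granulocyte and monocyte progenitors, was at 9.14 and 11.22 in deficient HSC, against 7.01 and 10.59 in wild type HSC. In all 3 genes pool 2 lay far above pool 1 within each genotype, and the ranges of the genotypes overlapped. The same held for Mpo, the peroxidase that makes hypochlorous acid, at 10.72 and 12.83 in deficient HSC, against 10.71 and 12.60 in wild type HSC. Prtn3, proteinase 3, was at 12.01 and 12.55 in deficient HSC, against 11.02 and 12.32 in wild type HSC, with a smaller step between pools. All 5 differences lay above 0, with a median of 0.69, but the SE of Ctsg was 1.72 around a difference of 1.59 and that of Mpo 0.88 around 0.12. None of the 5 was at an unadjusted p under 0.05, and for none did the pools of the genotypes stand apart. Without wild type pool 1 the median was -0.82, without wild type pool 2 it was 2.66, without deficient pool 1 it was 2.07 and without deficient pool 2 it was 0.34.

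Pool 2 was at least 2-fold above pool 1 in both genotypes for 4 of the 5 azurophil genes (Ctsg, Elane, Ms4a3 and Mpo) and for none of the other 30 members, against 0.0934% of all genes, or 17 genes. Pool 2 was above pool 1 for 5 of 5 genes within deficient HSC, against 49.7% of all genes, and for 5 of 5 within wild type HSC, against 54.5%. The median step across the 5 genes was 2.11 in deficient HSC and 3.58 in wild type HSC. Genes of eosinophils, mast cells and basophils showed a step in the same direction, with medians of 1.13 in deficient HSC and 0.97 in wild type HSC over 8 measured markers. Of the 8, 3 were at least 2-fold higher in pool 2 in both genotypes, against 0.0934% of all genes. Ccr3 went the other way within deficient HSC (-0.50), and Cpa3 hardly moved there (0.04). The largest step was that of Prg2, the eosinophil major basic protein, at 5.09 and 9.66 in deficient HSC, against 4.16 and 8.71 in wild type HSC. The labels describe pool 1 of each genotype by a single number and pool 2 by a range of numbers, without saying what these count or how they relate to the 3 mice stated for a pool. Their part in the azurophil values was not tested.

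The promoter of Elane is shown because 4 of the 5 azurophil promoters held the PU.1 core motif GAGGAAG on either strand, a feature that the choice of genes did not use. It was chosen after the motif search, and its match, in capitals, begins 85 bases before the start of the gene. The window runs from 250 bases before to 50 after the start (RefSeq, GRCm38.p6, chr10:79886062-79886361, plus strand).
Elane: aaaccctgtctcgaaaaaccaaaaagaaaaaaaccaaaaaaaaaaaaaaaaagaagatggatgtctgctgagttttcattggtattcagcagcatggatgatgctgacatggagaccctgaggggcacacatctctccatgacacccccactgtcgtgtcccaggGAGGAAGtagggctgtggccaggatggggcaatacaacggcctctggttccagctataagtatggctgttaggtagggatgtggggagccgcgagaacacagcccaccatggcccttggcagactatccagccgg

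The specific granule genes were higher in deficient HSC as a set of values, 11 of 11 above 0 with a median log2 difference of 0.77, or 1.71-fold. Mmp8, the neutrophil collagenase, had 9.36 and 7.49 in deficient HSC, against 5.996 and 6.37 in wild type HSC, 4.73-fold higher (log2 difference 2.24, SE 0.60). Hp, the haemoglobin scavenger haptoglobin, had 10.80 and 10.28 in deficient HSC, against 8.02 and 9.63 in wild type HSC, 3.28-fold higher (1.71, SE 0.54). Both deficient pools lay above both wild type pools for these genes, but pool 2 minus pool 1 was -1.86 within deficient HSC for Mmp8 and 1.61 within wild type HSC for Hp. Lcn2, the siderophore-binding lipocalin 2, had 12.49 and 11.26 in deficient HSC, against 10.26 and 10.88 in wild type HSC, 2.47-fold higher (1.30, SE 0.45). Chil3, the chitinase-like lectin Ym1, had 13.22 and 12.49 in deficient HSC, against 11.38 and 12.16 in wild type HSC, 2.12-fold higher (1.09, SE 0.36). Neither gene had overlapping groups, although for Chil3 deficient pool 2 and wild type pool 2 were only 0.33 apart.

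Cd177, a surface glycoprotein stored in specific granules, had the smallest unadjusted p of the specific granule genes (0.0066 by limma, adjusted p = 0.761). It was at 7.68 and 7.62 in deficient HSC, against 6.70 and 7.05 in wild type HSC, 1.71-fold higher (log2 difference 0.77, SE 0.18), so that its pools within a genotype lay closer together than those of Mmp8 or Hp. Pglyrp1, which binds bacterial peptidoglycan, was at 6.53 and 6.22 in deficient HSC, against 5.85 and 5.99 in wild type HSC, with a difference of 0.45 (SE 0.17). Ngp, a cystatin-related granule protein, was at 13.61 and 13.19 in deficient HSC, against 12.67 and 13.04 in wild type HSC, with a difference of 0.55 (SE 0.22) that missed an unadjusted p of 0.05 (0.055 by limma). These 3 genes also had no overlap between the genotypes, which made 7 of the 11.

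The other 4 specific granule genes overlapped between the genotypes. Camp, the antimicrobial peptide precursor cathelicidin, was at 13.38 and 12.96 in deficient HSC, against 11.45 and 13.24 in wild type HSC, where wild type pool 1 alone was low. Ltf, the iron-binding lactoferrin, differed by 0.73 (SE 0.41). Lyz2, the lysozyme that monocytes and macrophages also make, differed by 0.17 (SE 0.41), and the lectin ficolin B (Fcnb) by 0.06 (SE 0.51), with 95% intervals from -0.86 to 1.20 and from -1.22 to 1.35. Of the 11 genes, 6 were higher at an unadjusted p under 0.05, against 2.19% of all genes, all of them among the 7 without overlap, against 17.0% of all genes. The median of the 11 was 0.62 without deficient pool 1, and leaving out a wild type pool gave 0.43 for pool 1 and 1.04 for pool 2. Without wild type pool 1, Hp differed by 0.91, Chil3 by 0.69, Camp by -0.08, Fcnb by -0.68 and Lyz2 by -0.24. Omission of deficient pool 1 gave 1.31 for Mmp8, 0.69 for Lcn2, 0.34 for Ngp and 0.29 for Pglyrp1.

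Promoters of the specific granule genes with the smallest p, Cd177 and Mmp8, are shown for the C/EBP motif TTNNGCAA and the PU.1 motif GAGGAAG, searched on both strands, with matches in capitals. Mmp8 held a C/EBP match that begins 19 bases before the start and a PU.1 match that begins 220 bases before it, and Cd177 held neither in this window. Both are from RefSeq, GRCm38.p6, at chr7:24760262-24760561 on the minus strand for Cd177 and chr9:7558179-7558478 on the plus strand for Mmp8.
Cd177: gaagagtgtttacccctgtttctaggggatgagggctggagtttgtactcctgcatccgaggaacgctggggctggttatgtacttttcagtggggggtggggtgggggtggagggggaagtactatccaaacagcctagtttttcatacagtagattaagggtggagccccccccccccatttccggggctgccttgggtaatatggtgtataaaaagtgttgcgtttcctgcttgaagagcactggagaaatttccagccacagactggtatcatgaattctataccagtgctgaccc
Mmp8: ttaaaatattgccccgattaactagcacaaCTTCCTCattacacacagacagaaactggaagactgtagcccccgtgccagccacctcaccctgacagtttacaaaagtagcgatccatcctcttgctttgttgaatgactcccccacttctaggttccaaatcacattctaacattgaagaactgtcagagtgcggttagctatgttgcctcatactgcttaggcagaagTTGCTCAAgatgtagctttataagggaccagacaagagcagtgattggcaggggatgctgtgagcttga

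Mmp9, the gelatinase that names the gelatinase granules, was 2.96-fold higher in deficient HSC (log2 difference 1.56, SE 0.52). It was at 9.70 and 8.11 in deficient HSC, against 7.18 and 7.50 in wild type HSC. The groups did not overlap, and pool 2 minus pool 1 was -1.60 within deficient HSC. A second, dimmer probe set of Mmp9 was at 7.14 and 5.72 in deficient HSC, against 5.45 and 5.25 in wild type HSC, with a difference of 1.08 (SE 0.46). Without deficient pool 1 the difference of Mmp9 was 0.76, and without deficient pool 2 it was 2.36.

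The subunits of the phagocyte NADPH oxidase, the enzyme that makes superoxide, gave values of both signs. Cybb, the catalytic subunit, was at 10.01 and 9.37 in deficient HSC, against 7.76 and 8.77 in wild type HSC, 2.69-fold higher (log2 difference 1.43, SE 0.39). Its membrane partner Cyba was at 10.01 and 10.05 in deficient HSC, against 10.10 and 10.40 in wild type HSC, a difference of -0.22 (SE 0.17, 95% interval -0.65 to 0.20). For neither gene did the groups overlap, and the difference between the subunits was not tested. Of the cytosolic subunits, Ncf1 was at 9.50 and 9.27 in deficient HSC, against 8.24 and 8.98 in wild type HSC, 1.71-fold higher (0.77, SE 0.28). Ncf4 was at 9.60 and 9.65 in deficient HSC, against 8.86 and 9.50 in wild type HSC, with a difference of 0.45 (SE 0.24). For Ncf4 the deficient pools lay only 0.10 above wild type pool 2, and wild type pool 1 was the low value.

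Cybb and Ncf1 were at an unadjusted p under 0.05 (0.0138 and 0.0354 by limma, adjusted p = 0.761 and 0.782), while Cyba and Ncf4 were not. Dimmer probe sets of Cybb differed by 0.51 (SE 0.28) and 0.02 (SE 0.16), and those of Ncf1 by 0.17 (SE 0.32) and 0.36 (SE 0.15). The median of the 4 subunits was 0.61, and it was 0.27 without wild type pool 1, where Cybb differed by 0.92, Ncf1 by 0.41 and Ncf4 by 0.13, and 0.96 without wild type pool 2. Rac2, the GTPase that switches the oxidase on, was at 9.85 and 9.81 in deficient HSC, against 10.17 and 10.11 in wild type HSC, so that its values, like those of Cyba, were lower in both deficient pools. Rac2 was named after its values were seen, and only the brighter of its 2 probe sets is given. It was the 1 gene below 0 among the 10 measured other oxidase and granule genes. Hvcn1, from the same list, differed by 0.14 (SE 0.18). Of all genes, 18.5% were lower in both deficient pools.

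**Figure D2:**
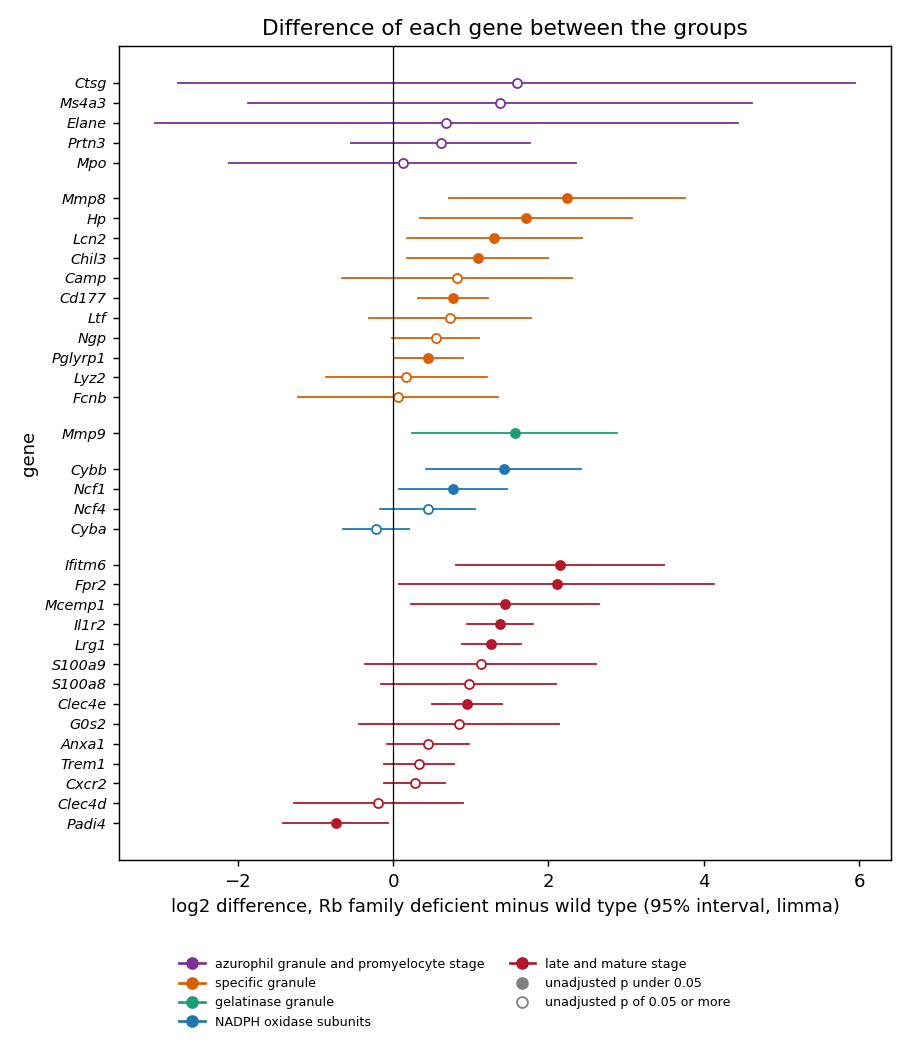
Each point is the log2 difference, Rb family deficient minus wild type (horizontal axis), of 1 gene (vertical axis), with its 95% interval from limma, coloured by stage group, and points are filled where the unadjusted p was under 0.05. The intervals of the 5 azurophil genes span 0 widely, Lrg1 and Il1r2 have the narrowest intervals that do not include 0, and Cyba, Clec4d and Padi4 are the 3 points below 0.

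Genes of the late and mature stage had a median difference of 0.96 on the log2 scale, or 1.95-fold, with 12 of 14 above 0. Lrg1, a leucine-rich glycoprotein stored in neutrophil granules, was at 7.60 and 7.44 in deficient HSC, against 6.26 and 6.25 in wild type HSC, 2.41-fold higher (log2 difference 1.27, SE 0.15). Il1r2, the decoy receptor for interleukin-1, was at 7.79 and 7.55 in deficient HSC, against 6.21 and 6.38 in wild type HSC, 2.60-fold higher (1.38, SE 0.17). Clec4e (Mincle), a C-type lectin that senses mycobacterial glycolipids, was at 8.20 and 8.01 in deficient HSC, against 7.01 and 7.31 in wild type HSC, 1.93-fold higher (0.95, SE 0.18). In these 3 genes the gap between the genotypes was larger than any difference between pools of a genotype. They ranked 6, 7 and 47 by p among the 18193 genes, each with an adjusted p of 0.761 by limma. With any 1 pool left out, Lrg1 differed by 1.18 to 1.35, Il1r2 by 1.26 to 1.50 and Clec4e by 0.80 to 1.10. A second probe set of Clec4e gave 1.04 (SE 0.23).

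Other late genes had larger differences with wider spread. Ifitm6, a member of the interferon-induced transmembrane family, was at 11.47 and 10.12 in deficient HSC, against 8.17 and 9.13 in wild type HSC, 4.43-fold higher (log2 difference 2.15, SE 0.53). Fpr2, a formyl peptide receptor, was at 10.86 and 8.31 in deficient HSC, against 7.33 and 7.63 in wild type HSC, 4.31-fold higher (2.11, SE 0.80). Mcemp1, a membrane protein of mast cells and myeloid cells, was at 9.31 and 8.43 in deficient HSC, against 6.84 and 8.03 in wild type HSC, 2.71-fold higher (1.44, SE 0.48). No groups overlapped, but pool 2 minus pool 1 was -2.55 within deficient HSC for Fpr2, and without deficient pool 1 its difference was 0.83. Without wild type pool 1 the difference of Mcemp1 was 0.84. S100a8 and S100a9 encode the 2 chains of calprotectin, the most abundant cytosolic protein of neutrophils. S100a8 was at 14.28 and 13.61 in deficient HSC, against 12.36 and 13.56 in wild type HSC, and S100a9 at 13.81 and 13.06, against 11.45 and 13.16. Their differences of 0.98 (SE 0.45) and 1.13 (SE 0.59) shrank to 0.38 and 0.28 once wild type pool 1 was left out.

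Padi4, the enzyme that citrullinates histones in neutrophil extracellular traps, was the 1 member lower at an unadjusted p under 0.05 (0.0376 by limma, adjusted p = 0.782). It was at 7.62 and 6.89 in deficient HSC, against 8.05 and 7.94 in wild type HSC, 1.67-fold lower (log2 difference -0.74, SE 0.27). Both deficient pools lay below both wild type pools, and without deficient pool 2 the difference was -0.37. Clec4d, the lectin that pairs with Clec4e at the cell surface, was at 8.02 and 7.36 in deficient HSC, against 7.31 and 8.44 in wild type HSC, so that the groups overlapped (-0.19, SE 0.43). Clec4d and Clec4e are neighbours on the chromosome, and the difference between their responses was not tested. G0s2, an inhibitor of triglyceride lipolysis, differed by 0.85 (SE 0.51) with overlapping groups.

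The remaining 3 late genes, the phospholipid-binding protein annexin A1 (Anxa1), the activating receptor Trem1 and the chemokine receptor Cxcr2, differed by 0.45 (SE 0.21), 0.33 (SE 0.18) and 0.28 (SE 0.15). Both deficient pools were above both wild type pools for each, and none was at an unadjusted p under 0.05. Over the 14 late genes, 10 had higher deficient pools with no overlap, against 17.0% of all genes, and 1 lower ones, against 18.5%. At an unadjusted p under 0.05, 6 were higher, against 2.19% of all genes. Deficient pool 2 was below deficient pool 1 in 14 of 14 late genes, against 50.3% of all genes, by a median of -0.67, and wild type pool 2 was above wild type pool 1 in 12, against 54.5% of all genes, by a median of 0.30. The median of the late genes was 0.70 or 1.33 after omission of deficient pool 1 or pool 2, and leaving out a wild type pool gave 0.35 for pool 1 and 1.34 for pool 2.

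The promoters of Lrg1 and Il1r2, the late genes with the smallest p, held no match to either motif in this window. They are from RefSeq, GRCm38.p6, at chr17:56121897-56122196 on the minus strand for Lrg1 and chr1:40085843-40086142 on the plus strand for Il1r2.
Lrg1: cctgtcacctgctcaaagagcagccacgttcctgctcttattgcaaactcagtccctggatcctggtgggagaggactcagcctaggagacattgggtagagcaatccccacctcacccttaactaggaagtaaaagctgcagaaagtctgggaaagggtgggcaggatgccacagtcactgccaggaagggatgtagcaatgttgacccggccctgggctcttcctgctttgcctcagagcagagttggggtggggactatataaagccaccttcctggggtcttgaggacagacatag
Il1r2: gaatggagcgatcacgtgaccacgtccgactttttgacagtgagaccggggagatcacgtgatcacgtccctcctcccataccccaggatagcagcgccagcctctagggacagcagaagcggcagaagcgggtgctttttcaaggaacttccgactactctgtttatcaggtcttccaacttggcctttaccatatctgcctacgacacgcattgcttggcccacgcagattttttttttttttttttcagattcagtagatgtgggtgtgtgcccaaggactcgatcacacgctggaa

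**Figure D3:**
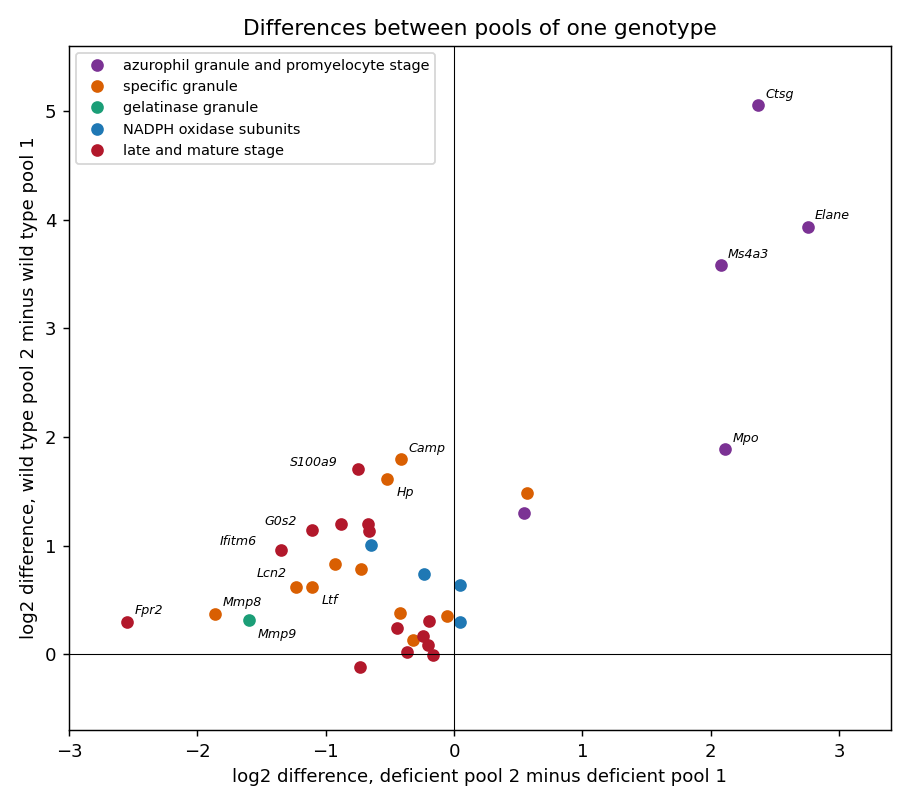
For each of the 35 genes the log2 difference between deficient pool 2 and deficient pool 1 (horizontal axis) is set against that between wild type pool 2 and wild type pool 1 (vertical axis), coloured by stage group. The azurophil genes Ctsg, Elane, Ms4a3 and Mpo lie at the upper right, above 1 on both axes, while all 14 late genes lie left of 0.

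**Figure D4:**
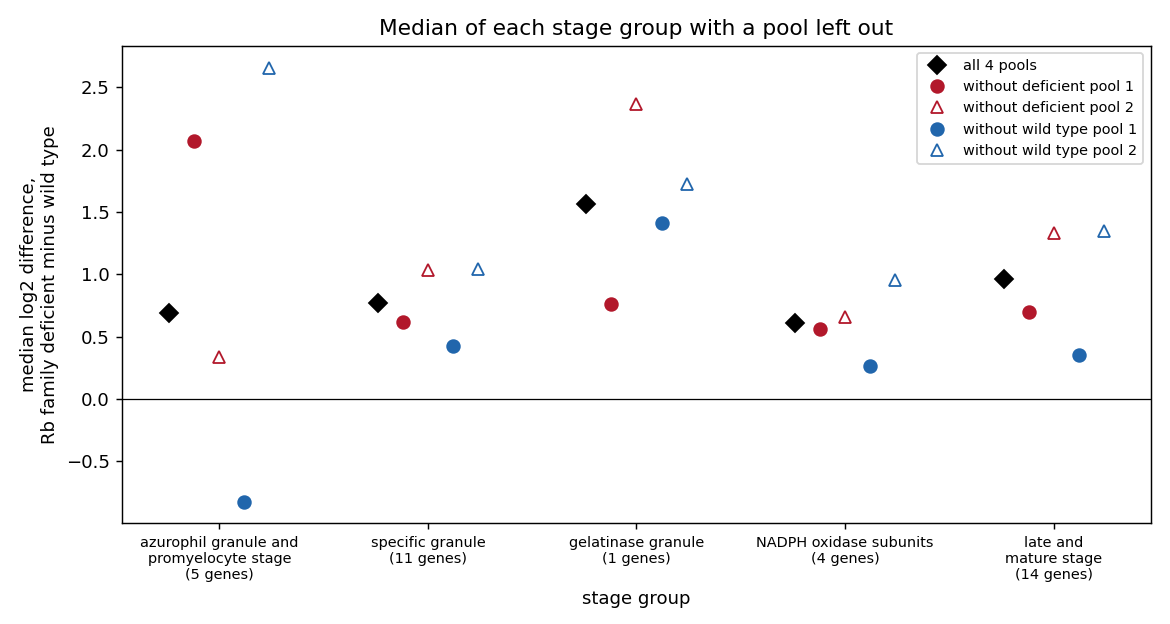
The median log2 difference, Rb family deficient minus wild type (vertical axis), of each stage group (horizontal axis) is given over all 4 pools (diamonds) and with each pool left out. The azurophil median runs from -0.82 to 2.66 and the late median from 0.35 to 1.34.

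Motif matches were counted in the promoters of 34 members, which included Retnlg and Fpr1. The C/EBP motif was found in 10 of the 34, or 29.4%, against 10.8% of all 32851 promoters of the same length, and the PU.1 motif in 9, or 26.5%, against 13.6%. The C/EBP motif was in 1 of 5 azurophil promoters, 5 of 10 specific granule promoters and 4 of 16 late promoters. The PU.1 motif was found in 4 of 5 azurophil promoters, including those of Mpo, Prtn3 and Ctsg beside that of Elane, in 3 of 10 specific granule promoters and in 2 of 16 late promoters. No oxidase promoter of 3 held either motif. These counts describe letters within 300 bases and were given no test.

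Other genes of neutrophil development, 27 measured of 34 listed, differed less, with a median of 0.20 and 22 above 0. Of them 6 were higher at an unadjusted p under 0.05, against 2.19% of all genes, and 0 lower, against 4.04%. Among the transcription factors, Cebpd, which myeloid cells induce under stress, was at 8.69 and 8.32 in deficient HSC, against 6.97 and 7.79 in wild type HSC, 2.19-fold higher (log2 difference 1.13, SE 0.31). Runx1, needed for blood stem cells to form, was at 10.81 and 10.61 in deficient HSC, against 10.24 and 10.56 in wild type HSC (0.31, SE 0.18). Cebpb, which drives emergency granulopoiesis, was at 8.28 and 8.09 in deficient HSC, against 7.19 and 8.30 in wild type HSC (0.44, SE 0.37). The groups overlapped for Cebpb but not for Runx1, and without wild type pool 1 Cebpd differed by 0.72 and Cebpb by -0.12. Averaged over all probe sets of the gene, Cebpd differed by 0.70, Runx1 by 0.27 and Cebpb by 0.16. Spi1, which encodes PU.1, and Cebpa, both needed to start granulocyte development, differed by 0.07 (SE 0.22) and 0.06 (SE 0.14), with 95% intervals from -0.49 to 0.63 and from -0.31 to 0.42. Spi1, Cebpa and the receptor genes described next were named after their values were seen, unless they had one of the 3 smallest p of their list.

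Receptors of granulocytes gave values of both signs. Csf2rb, the shared beta chain of the receptors for GM-CSF and interleukin-3, was at 9.88 and 10.24 in deficient HSC, against 8.999 and 9.15 in wild type HSC, 1.99-fold higher (log2 difference 0.99, SE 0.18). Ltb4r1, the leukotriene B4 receptor, was at 7.71 and 7.70 in deficient HSC, against 6.70 and 7.11 in wild type HSC (0.80, SE 0.19). The platelet-activating factor receptor gene Ptafr was at 4.63 and 4.54 in deficient HSC, against 4.27 and 4.18 in wild type HSC (0.36, SE 0.14). For these 3 receptors both deficient pools lay above both wild type pools in the brightest probe set. Averaged over all probe sets of the gene, Csf2rb differed by 0.63 and Ptafr by 0.06. Csf3r, the receptor for G-CSF, was at 8.85 and 8.79 in deficient HSC, against 9.46 and 8.76 in wild type HSC (-0.29, SE 0.26). The integrin chain genes of the neutrophil adhesion receptor Mac-1, Itgam and Itgb2, differed by -0.000756 (SE 0.15) and 0.00391 (SE 0.19), with 95% intervals from -0.37 to 0.37 and from -0.47 to 0.48. Itgam was at 4.002 and 4.13 in deficient HSC, against 4.05 and 4.09 in wild type HSC.

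Of the other oxidase and granule genes, 9 of 10 differed by more than 0. Ceacam10, of the carcinoembryonic antigen family, was at 6.44 and 4.996 in deficient HSC, against 4.14 and 4.43 in wild type HSC, 2.70-fold higher (log2 difference 1.43, SE 0.47). Olfm4, which marks a subset of neutrophils, was at 9.32 and 7.95 in deficient HSC, against 7.45 and 7.42 in wild type HSC, 2.30-fold higher (1.20, SE 0.44). Serpinb1a, an inhibitor of neutrophil serine proteases, was at 10.89 and 11.04 in deficient HSC, against 10.45 and 10.39 in wild type HSC, 1.46-fold higher (0.54, SE 0.15). For all 3 the groups did not overlap. Without deficient pool 1, Ceacam10 differed by 0.71 and Olfm4 by 0.52. Averaged over all its probe sets, Ceacam10 differed by 0.94.

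Markers of other cell types were measured beside these genes, and 49.2% of all genes were above 0. Of 10 HSC markers 3 were above 0, with a median of -0.22, and mean log2 levels of 9.46 and 9.77 in deficient HSC, against 9.77 and 9.85 in wild type HSC. Procr, the endothelial protein C receptor, differed by -0.85 (SE 0.17), Mecom by -0.69 (SE 0.16) and Ctnnal1 by 0.75 (SE 0.24). These were the 3 at an unadjusted p under 0.05, 1 higher, against 2.19% of all genes, and 2 lower, against 4.04%. Mecom has 3 probe sets and Ctnnal1 2, and only the brightest of each is given. Of 13 monocyte and macrophage markers 11 were above 0, with a median of 0.09 and mean levels of 5.91 and 6.10 in deficient HSC, against 5.57 and 6.11 in wild type HSC. None was at an unadjusted p under 0.05, and the 13 differences ran from -0.08 to 0.86. Of 7 B cell markers 7 were above 0, with a median of 0.37. Their mean levels were 7.43 and 6.92 in deficient HSC, against 6.40 and 7.16 in wild type HSC. Ighm differed by 0.67 (SE 0.19) in the brightest of its 11 probe sets. Medians were 0.48 for eosinophil, mast cell and basophil markers, 0.14 for erythroid, 0.08 for T and NK cell and -0.02 for megakaryocyte markers, each with no marker at an unadjusted p under 0.05.

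Wild type pool 1 was the lowest pool for 11 of 13 monocyte and macrophage markers, 7 of 7 B cell markers, 6 of 8 eosinophil, mast cell and basophil markers and 5 of 6 erythroid markers, as it was for the neutrophil genes. This held for 4 of 7 T and NK cell markers, for 3 of 10 HSC markers and for megakaryocyte markers for 0 of 7. Over all genes wild type pool 1 was the lowest pool for 31.5%, a share near that of the HSC markers. The part of such cells in the neutrophil values was not tested. No detection calls were used, so no marker is called absent.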

How the data were processed

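The values that the authors deposited are log2 intensities from RMA, 1 for each probe set on each array, per the submitters' processing notes, which also name limma. Versions and settings are not stated there. RMA gives arrays nearly equal distributions and compresses folds of dim probe sets. Of 45101 probe sets, 64 controls were left out, 34945 had 1 gene symbol, 932 had several and 9160 had no listed gene. Symbols were updated through Entrez IDs with a RefSeq table (34741 found).

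Differences were fitted for 18193 genes with limma 3.58.1 (lmFit, eBayes) in R 4.3.3, Rb family deficient minus wild type, 2 pools each, with Benjamini-Hochberg adjustment over all genes and no filter. SE and 95% intervals are limma's moderated ones. The fit was tested on simulated data. P-values measure the spread between these pools, which may be technical, and the number of arrays limits the precision. Alternatives were the probe set rule, median centring, a filter on dim probe sets, an intensity trend, a replicate block and each pool left out.

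The members and lists were chosen with earlier results of these data known. Values by pool are given for members at an unadjusted p under 0.05 or at least 2-fold different and for at least the 3 members of a stage group with the smallest p, and of the other lists for the 3 with the smallest p. Probe sets of S100a8 and Clec4d have _s_at names, and Lyz2, Chil3 and Fpr2 have close paralogs that could share signal. Protein sequences were not used here. The stage groups follow textbook assignments, with Lyz2 placed among the specific granule genes.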

Additional observations from a re-analysis of the deposited data

How the results depend on the processing

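No gene of the 18193 and no member passed an adjusted p of 0.05 under any alternative, and the lowest adjusted p of a named gene was 0.416. Settings other than leaving out a pool turned none of 257 values of 44 named genes. The replicate block, the intensity trend and the filter on dim probe sets could not turn any, as they leave the log2 differences unchanged here. The probe set rule could not turn a gene with 1 probe set. Leaving out a pool turned 15 of 176 values in 10 genes. Over those 4 fits, in which the lone pool is assumed to vary like the others, Mpo ran from -0.93 to 1.18, Elane from -1.28 to 2.66, Prtn3 from -0.041 to 1.26, Ctsg from -0.94 to 4.12, Ms4a3 from -0.41 to 3.17, Fcnb from -0.68 to 0.80, Camp from -0.076 to 1.72, Lyz2 from -0.29 to 0.64, Clec4d from -0.75 to 0.38 and Cebpb from -0.12 to 0.99. Medians ran from 0.36 to 1.26 for all members, from -0.82 to 2.66 for azurophil genes, from 0.35 to 1.34 for late genes and from 0.10 to 0.29 for the other pathway genes, where median centring gave 0.14. Members higher at an unadjusted p under 0.05 numbered 8 to 22, lower ones 0 to 1, and those at least 2-fold higher 6 to 23. Over all genes the unadjusted counts were 244 to 689 higher and 317 to 1082 lower, and 176 and 408 with dim probe sets left out, where fewer genes were tested. The other causes were not tested.

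Pool numbers are shared by the groups, but nothing says that they pair the pools, and the deviations of same-numbered pools correlated at -0.19. With the replicate block, 9 members were higher at an unadjusted p under 0.05 and 0 passed the adjusted threshold, while 281 of all genes were higher and 457 lower. In same-numbered pools the deficient values of the 5 azurophil genes were the higher ones, though for Mpo in pool 1 only at 10.72 against 10.71. The share of all genes with this pattern was not counted. With the block Ms4a3 had an unadjusted p of 0.039 (adjusted p = 0.962 by limma). A crossed pairing, added after seeing the data, gave 21 members higher, and over all genes 518 higher and 1151 lower, at the same unadjusted threshold.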

Other observations

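Beside the 4 azurophil genes, 13 genes were at least 2-fold higher in pool 2 than in pool 1 of both genotypes. They were Prg2 and Epx, which encode eosinophil granule proteins, Ms4a2, a chain of the high-affinity IgE receptor, Cst7, an inhibitor of lysosomal proteases, F13a1, Vcam1, Prom1, Slc15a2, Dmkn, Plagl1, Sgms2, Tmem242 and the immediate early gene Fosb. Slc15a2, a peptide transporter, was at 7.33 and 9.05 in deficient HSC, against 6.97 and 9.58 in wild type HSC. Epx was at 5.61 and 7.67 in deficient HSC, against 5.18 and 7.20 in wild type HSC. Fosb was at 6.71 and 9.04 in deficient HSC, against 5.24 and 6.53 in wild type HSC. Prom1 was at 8.07 and 9.54 in deficient HSC, against 6.58 and 8.05 in wild type HSC. Both deficient pools lay above both wild type pools for Fosb and Prom1, as for 17.0% of all genes.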
